A study of Danio rerio with 12 samples.

Results

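The 9 complement genes c1qa, c1qb, c1qc, c3a.1, cfd, cfb, c6, c7a and c7b were followed through trunk muscle and eye muscle (extraocular muscle, EOM) of adult zebrafish. They were chosen with earlier results of these data known. Each was found once, by gene symbol, among 32520 genes counted in 12 messenger RNA libraries. The symbol c6 was met through RefSeq, where it is a synonym of c6.2 (ENSDARG00000057113), and the other 8 symbols were matched directly. The 4 groups of 3 libraries were trunk muscle of desma-/-;desmb-/- double mutants, trunk muscle of wild type (WT), EOM of the double mutants and EOM of WT. All fish were of the AB strain and 5 months old, and the WT fish came from the line in which the mutant was made. The mutation is carried in every cell, so both desmin genes were mutated in all tissues of the mutant fish. The labels give myofibres as the cell type, but each library was made from dissected muscle and so also holds RNA of other cells of that tissue. The series text calls the loss of desmin a knock-down and mentions a second time point, which is not analysed here. Sample titles number the libraries 1 to 3 in each group. Whether a library stands for 1 fish or a pool is not given in the sources used here, so p-values measure the spread between libraries.

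Complement is a cascade of plasma and membrane proteins that marks particles and damaged cells for removal. The classical pathway starts when C1q, a hexamer of trimers built of A, B and C chains, binds antibodies or altered surfaces. The alternative pathway amplifies deposition of C3 through factor B and the protease factor D. Both converge on C3, and cleavage of C5 then starts assembly of C6, C7, C8 and C9 into a membrane pore. In mammals the liver makes most of the plasma proteins of the cascade, whereas C1q is made mainly by macrophages and related myeloid cells and factor D (adipsin) largely by fat cells. Macrophages enter damaged muscle and clear dying fibres. Desmin is the intermediate filament protein that ties together the contractile units of muscle, and the study asked how EOM and trunk muscle differ in their response to its loss.

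The libraries held 64.5 to 91.1 M reads on the strand of a gene. The desmin gene ENSDARG00000058656 stood at 36.7 to 62.7 CPM (read counts relative to the TMM-scaled library size) in mutant trunk and 519 to 644 CPM in WT trunk. It stood at 18.2 to 26.2 CPM in mutant EOM and 509 to 1340 CPM in WT EOM, and the second desmin gene was at or below 0.285 CPM in every library. The posterior position gene hoxa9a had no read in EOM and 0.817 to 2.99 CPM in trunk. The 4 of 11 listed myofibre genes that could be matched summed to 82400 to 184000 CPM in mutant trunk and 61900 to 82400 CPM in WT trunk, against 13200 to 38200 CPM in mutant EOM and 12900 to 37000 CPM in WT EOM. TMM scaling factors, which adjust library totals for their makeup, were 0.555 to 0.922 in mutant trunk, 0.963 to 1 in WT trunk, 0.887 to 1.8 in mutant EOM and 0.951 to 1.68 in WT EOM. Library 2 of mutant trunk and library 3 of mutant EOM marked the ends of this range.

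The first comparison asked how the complement genes differ between mutant and WT trunk muscle. After TMM scaling, the C1q chains, c3a.1 and c6 stood about 2 to 3 times higher in mutant trunk. They showed no overlap between the 3 mutant and the 3 WT libraries, whereas c7a, c7b and cfd overlapped between genotypes. None of the 8 genes tested passed an adjusted p of 0.05 in edgeR's quasi-likelihood test. In whole dissected muscle, more cells of a type and more RNA per cell cannot be told apart.

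Of the C1q chains, which recognise the target, c1qb (ENSDARG00000044612) had 8.54, 8.72 and 6.73 CPM in mutant trunk, against 2.74, 2.38 and 3.02 CPM in WT trunk. This was a difference of 1.56 ± 0.242 (SE) on the log2 scale (adjusted p = 0.0857), or 2.95-fold, and rested on 367 to 520 reads per mutant library and 176 to 262 reads per WT library. The other two chains showed smaller differences of the same sign. For c1qa (ENSDARG00000044613), mutant trunk had 5.07, 4.70 and 3.31 CPM, against 2.03, 2.44 and 1.78 CPM in WT trunk, a difference of 1.06 ± 0.287 (SE) on the log2 scale (adjusted p = 0.257). For c1qc (ENSDARG00000095627), mutant trunk had 5.76, 6.25 and 4.22 CPM, against 2.43, 2.81 and 2.45 CPM in WT trunk, a difference of 1.07 ± 0.262 (SE) on the log2 scale (adjusted p = 0.221). Library 3 was the lowest mutant trunk library for all 3 chains and still lay above every WT trunk library.

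The C3 gene c3a.1 (ENSDARG00000012694), which encodes the protein on which the pathways converge, had 1.68, 2.49 and 1.14 CPM in mutant trunk, against 0.492, 0.582 and 0.76 CPM in WT trunk. The log2 difference was 1.53 ± 0.426 (SE; adjusted p = 0.265). Its reads were few, at least 88 per mutant library and 39 to 66 per WT library. Zebrafish carry several c3a copies, and reads shared by near-identical copies were not counted, so the level of any single copy is uncertain.

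Factor D, the serine protease that cleaves factor B, is encoded by cfd (ENSDARG00000039579). It had 86.1, 66.9 and 30.8 CPM in mutant trunk, against 34.4, 38.7 and 50.8 CPM in WT trunk, a difference of 0.57 ± 0.375 (SE) on the log2 scale (adjusted p = 0.524). Libraries 1 and 2 of mutant trunk lay above all WT trunk libraries and library 3 lay below them. Factor B, the substrate of factor D, is encoded by cfb (ENSDARG00000055278) and was too low for the test. It had 5, 11 and 5 reads in mutant trunk and 0, 1 and 0 reads in WT trunk. No EOM library held a read of it, where 3 reads would correspond to 0.0216 to 0.0471 CPM. The next coding gene in the RefSeq annotation, bfb, was in no gene list, so these values speak for cfb alone. In that annotation the span of cfb overlaps that of the coding gene before it, slc29a2. Reads ambiguous between genes were not counted, so the level of cfb may be understated.

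Among the terminal components, which build the pore, c6 differed most. It had 19, 22.4 and 18.3 CPM in mutant trunk, against 6.39, 6.46 and 7.61 CPM in WT trunk. The lowest mutant value was more than double the highest WT value, and the log2 difference was 1.55 ± 0.198 (SE; adjusted p = 0.0626), or 2.92-fold. The C7 gene c7a (ENSDARG00000042172) had 43.5, 23.3 and 43.6 CPM in mutant trunk, against 28.1, 28.4 and 22.9 CPM in WT trunk, a difference of 0.47 ± 0.268 (SE) on the log2 scale (adjusted p = 0.483). The other C7 gene, c7b (ENSDARG00000057121), had 14.4, 10.5 and 11.9 CPM in mutant trunk, against 9.73, 9.26 and 14.4 CPM in WT trunk, a difference of 0.13 ± 0.246 (SE) on the log2 scale (adjusted p = 0.796). Mutant library 2 was the lowest of its group for both C7 genes, and both genes overlapped between genotypes. In the RefSeq annotation of assembly GRCz12tu the spans of c6 and c7b overlap. Reads on the strand opposite to c6 reached 22.2% of its own reads, and counting without regard to strand left c7b with 81.8 to 89.6% of its reads, so values here are from reads on the strand of the gene.

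All 8 genes tested had a log2 fold change above 0, against 48.4% of all genes, but c7b and cfd were below 0 when libraries were scaled by their totals alone. That scaling moved the median log2 fold change of all genes to -0.5 and of the 8 genes to 0.53, so the 8 genes kept a median above that of all genes. With TMM the median was 1.07 for the 8 genes and -0.03 for all genes. Over the alternatives on the full set of trunk libraries the log2 fold change fell to as low as 0.53 for c1qa and 0.54 for c1qc. The lowest value was 0.96 for c3a.1 and 1.04 for both c1qb and c6. With edgeR, 0 of the 8 genes passed the adjusted threshold, where 0.0333% of 18041 genes did, and 5 (c1qa, c1qb, c1qc, c3a.1 and c6) had an unadjusted p under 0.05 and were higher, where 8.72% of all genes did. The same 5 genes were those without overlap between the groups, where 12.6% of all genes lay higher without overlap. Because the genes were chosen with earlier results of these data known, the shares over all genes here and below give scale and are no test.

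The number of calls in trunk depended on the test. DESeq2 called the same 5 genes, at 3.4% of all genes, with adjusted p = 2.15e-08 for c6 and 1.25e-06 for c1qb, and limma-voom called none. Over all alternatives on the full set of libraries the adjusted p of c6 ranged between 2.15e-08 and 0.431, and that of c1qb between 1.25e-06 and 0.504. Of the 8 genes, c6 alone passed with edgeR when no low-count filter was used, at 0.195% of all genes, and when all 12 libraries were fitted together, at 0.259%. Without library 2 of mutant trunk, c1qb and c6 passed, with adjusted p-values of 0.0159 and 0.00806, at 1.32% of all genes. Leaving out any other trunk library gave no call among the 8 genes.

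**Figure D1:**
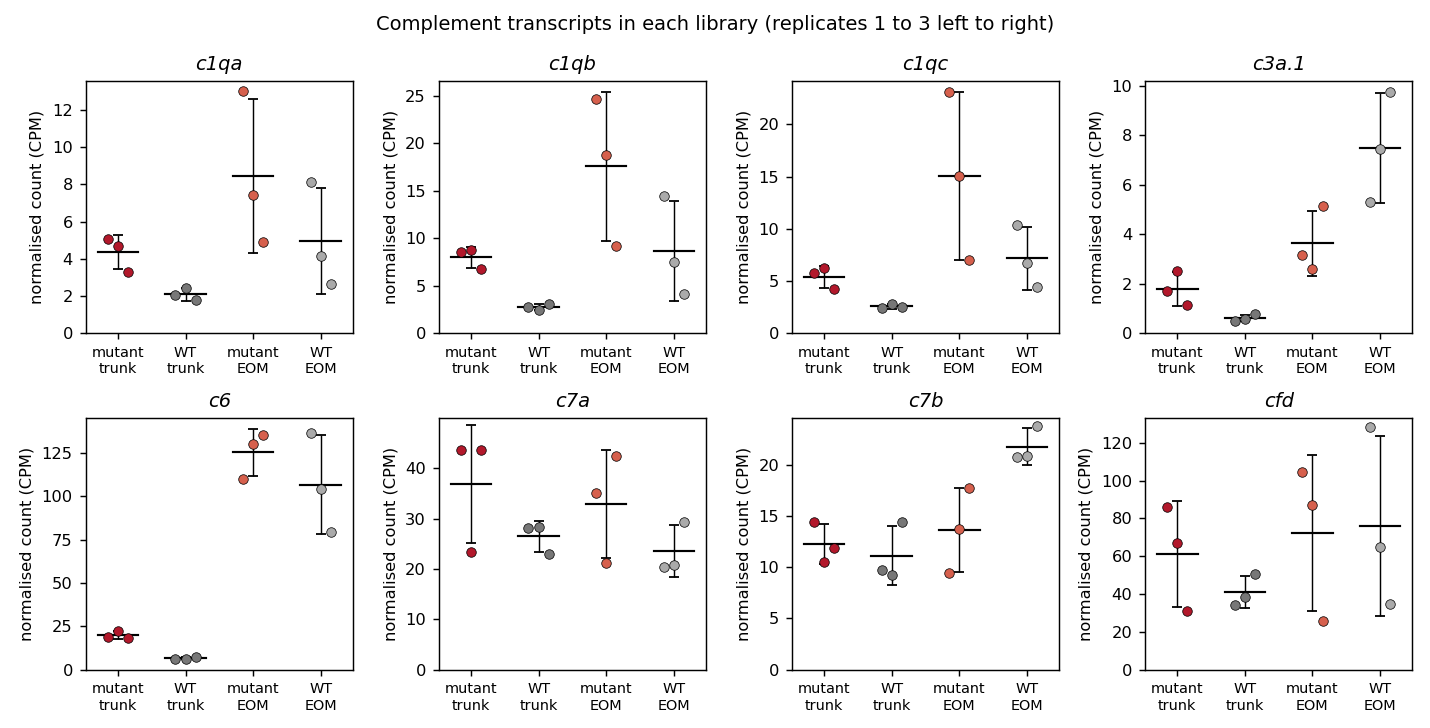
Normalised read counts (CPM, y axes starting at 0) of 8 complement genes in the 12 libraries, by muscle and genotype. Points are libraries, horizontal bars are group means and error bars are the SD over 3 libraries. The C1q chains, c3a.1 and c6 do not overlap between mutant and WT trunk. On these TMM-scaled levels c3a.1 and c7b do not overlap between mutant and WT EOM, but by library totals alone they do. The gene cfb, with at most 11 reads in a library, is not drawn.

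The same comparison was then made in EOM. The C1q chains were 1.69 to 2.08 times higher in mutant EOM on average, with wide overlap between libraries. In contrast, c3a.1 and c7b were lower in all 3 mutant EOM libraries than in any WT EOM library after TMM scaling. That separation depended on the scaling. Mutant EOM library 3 (TMM factor 1.8, 77 M reads) held 711 reads of c3a.1 and 2456 of c7b. WT EOM library 1 (factor 0.951, 83.1 M reads) held 418 and 1632, so by library totals alone the genotypes overlapped. Again none of the 8 genes tested passed the adjusted threshold with edgeR when replicate numbers were ignored.

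For c1qb, mutant EOM had 24.7, 18.8 and 9.18 CPM, against 14.4, 7.45 and 4.08 CPM in WT EOM, a difference of 1.01 ± 0.486 (SE) on the log2 scale (adjusted p = 0.924). For c1qc, mutant EOM had 23.1, 15.1 and 6.98 CPM, against 10.4, 6.69 and 4.41 CPM in WT EOM, a difference of 1.06 ± 0.474 (SE) on the log2 scale (adjusted p = 0.839). For c1qa, mutant EOM had 13, 7.44 and 4.92 CPM, against 8.14, 4.15 and 2.62 CPM in WT EOM, a difference of 0.76 ± 0.483 (SE) on the log2 scale (adjusted p = 0.999). In both genotypes library 1 was highest and library 3 lowest for each chain, so that the spread within a genotype followed the library number. Across all genes, same-numbered EOM libraries deviated together from their group means, with correlations of 0.315, 0.27 and 0.575 for numbers 1, 2 and 3, whereas trunk libraries did not.

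Taken by number, mutant EOM exceeded WT EOM in all 3 pairs for every C1q chain. The ratio of mutant to WT was 1.72, 2.52 and 2.25 for c1qb, 2.22, 2.26 and 1.58 for c1qc, and 1.6, 1.79 and 1.88 for c1qa. With the replicate number as a block in edgeR, c1qb passed the threshold with a log2 fold change of 1.09 and an adjusted p of 0.0331, in a fit that called 3.1% of all genes. The adjusted p was 0.0642 for c1qc and 0.193 for c1qa in that fit. Over its other alternatives on the full set of EOM libraries c1qb reached an adjusted p of up to 1. The labels do not say what a number marks, and the pairs were taken because same-numbered libraries correlated in these same data. The block results in EOM therefore rest on a pairing picked from the data. Number 3 had the highest TMM factor of each EOM group (1.8 in mutant, 1.68 in WT) and the most reads outside genes (9.24% and 8.93%).

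The C3 gene c3a.1 had 3.15, 2.6 and 5.12 CPM in mutant EOM, against 5.29, 7.45 and 9.73 CPM in WT EOM. The highest mutant value lay just below the lowest WT value, and the log2 difference was -1.04 ± 0.45 (SE; adjusted p = 0.799), or 2.06-fold lower. By number, the ratio of mutant to WT was 0.595, 0.35 and 0.526, and the block gave a log2 fold change of -1.06 with an adjusted p of 0.0561.

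Of the terminal genes, c7b had 9.45, 13.7 and 17.7 CPM in mutant EOM, against 20.7, 20.8 and 23.8 CPM in WT EOM, a difference of -0.67 ± 0.424 (SE) on the log2 scale (adjusted p = 0.999, and 0.257 with the block). For c6, mutant EOM had 110.3, 130.3 and 135.7 CPM, against 136.6, 104.1 and 79.7 CPM in WT EOM, a difference of 0.23 ± 0.459 (SE) on the log2 scale (adjusted p = 0.999). The c6 values of the genotypes overlapped, and the mutant was higher in numbers 2 and 3 and lower in number 1. For c7a, mutant EOM had 35.1, 21.2 and 42.4 CPM, against 20.4, 20.8 and 29.4 CPM in WT EOM, a difference of 0.48 ± 0.436 (SE) on the log2 scale (adjusted p = 0.999). Factor D, from cfd, had 104.5, 87.1 and 26 CPM in mutant EOM, against 128.1, 64.7 and 35 CPM in WT EOM, a difference of -0.08 ± 0.528 (SE) on the log2 scale (adjusted p = 0.999) whose sign turned when single libraries were left out. Its spread within a genotype was far larger than the difference between genotypes.

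With edgeR, 0 of the 8 genes passed in EOM, where 0.303% of 18804 genes did, and DESeq2 and limma-voom also called none. At an unadjusted p under 0.05, c1qb and c1qc were higher, where 2.58% of all genes were, and c3a.1 was lower, where 2.79% of all genes were. Log2 fold changes were above 0 for 5 of the 8 genes, against 52% of all genes, with a median of 0.36 for the 8 genes and 0.03 for all genes. The 2 genes lower without overlap after TMM scaling compare with 6.93% of all genes.

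**Figure D2:**
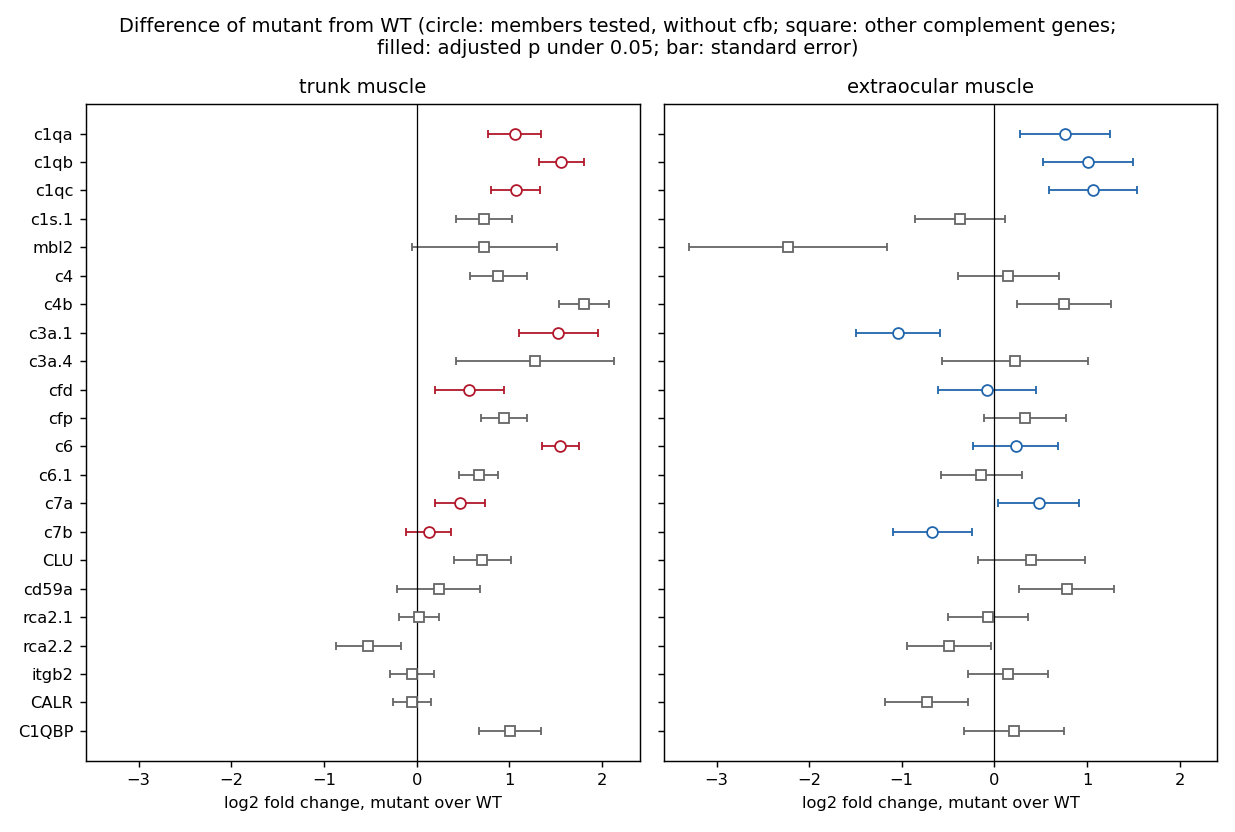
Log2 fold change of mutant over WT (x axes) in trunk muscle and in extraocular muscle, with bars of 1 standard error. Circles are the 8 complement genes tested, and squares are other complement genes with a mean of at least 1 CPM in a group. Other complement genes below that level, among them c3b.1 and MASP1, are not drawn. All circles lie right of 0 in trunk (c7b and cfd lie left of it with library totals alone), c3a.1 lies at -1.04 in extraocular muscle, and no symbol is filled because no gene passed an adjusted p of 0.05.

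Whether the genotype difference itself differed between muscles was tested as an interaction, the log2 fold change in trunk minus that in EOM. The gene that stood out was c3a.1, higher in mutant than WT trunk and lower in mutant than WT EOM. Its interaction was 2.57 (SE 0.587, edgeR unadjusted p = 0.000518), the number 12 by p among 20041 genes, with an adjusted p of 0.834. DESeq2 gave 2.56 with an adjusted p of 0.0444, and over the alternatives on all 12 libraries the adjusted p ranged between 0.0444 and 0.957. For c6 the interaction was 1.31 (SE 0.407, edgeR unadjusted p = 0.00553, adjusted p = 0.934). For c7b it was 0.81 (SE 0.439, adjusted p = 0.934), for cfd 0.63 (SE 0.747, adjusted p = 0.94) and for c1qb 0.54 (SE 0.612, adjusted p = 0.939).

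The remaining interactions were 0.3 for c1qa, 0 for c1qc and -0.01 for c7a, with standard errors of 0.624, 0.531 and 0.478, so a moderate difference between muscles in either direction lies within the error of these genes. With edgeR, 0 of the 8 genes passed the interaction test, where 0.00998% of all genes did, limma-voom called none, and DESeq2 called c3a.1 alone, where it called 0.0649% of all genes. At an unadjusted p under 0.05, c3a.1 and c6 were above 0, where 2.45% of all genes were. The interaction was above 0 for 7 of the 8 genes, against 48.4% of all genes, with medians of 0.59 and -0.03, but c1qc and c1qa were below 0 with library totals alone, which moved the median of all genes to -0.42, and c1qc also with DESeq2.

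The muscles were compared within each genotype. In WT, c6 was 15.5-fold and c3a.1 12-fold lower in trunk than in EOM, and the C1q chains and c7b were 1.93 to 3.15-fold lower. In the mutant the difference between muscles remained past the threshold for c6.

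In WT, c6 averaged 6.82 ± 0.684 CPM in trunk and 106.8 ± 28.6 CPM in EOM (SD, n = 3 each), and its log2 fold change of trunk over EOM was -3.95 (SE 0.278, adjusted p = 1.56e-05). The C3 gene c3a.1 averaged 0.611 ± 0.136 CPM in WT trunk and 7.49 ± 2.22 CPM in WT EOM, a difference of -3.59 ± 0.314 (SE) on the log2 scale (adjusted p = 5.06e-05). Both were also called in every alternative and with any library left out. The other C6 gene, c6.1, which is not among the 9, averaged 9.73 ± 1.27 CPM in WT trunk and 13.9 ± 2.52 CPM in WT EOM. Its difference of trunk from EOM was -0.5 ± 0.214 (SE) on the log2 scale in WT (adjusted p = 0.115). In the mutant it was 0.38 ± 0.464 (SE; adjusted p = 0.794). For c1qc, WT trunk averaged 2.57 ± 0.215 CPM and WT EOM 7.17 ± 3.04 CPM, a difference of -1.47 ± 0.314 (SE) on the log2 scale (adjusted p = 0.00778). For c1qb, WT trunk averaged 2.71 ± 0.318 CPM and WT EOM 8.64 ± 5.25 CPM, a difference of -1.66 ± 0.403 (SE) on the log2 scale (adjusted p = 0.0141). For c1qa, WT trunk averaged 2.08 ± 0.329 CPM and WT EOM 4.97 ± 2.85 CPM, a difference of -1.24 ± 0.388 (SE) on the log2 scale (adjusted p = 0.0404).

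The call for c1qc held with every library left out. That for c1qb was lost without library 2 of WT trunk, with an adjusted p of 0.0545. That for c1qa was lost in 5 of 6 leave-outs, all but the one without library 3 of WT EOM, with adjusted p-values of up to 0.142. The C7 gene c7b averaged 11.1 ± 2.87 CPM in WT trunk and 21.8 ± 1.8 CPM in WT EOM, a difference of -0.95 ± 0.229 (SE) on the log2 scale (adjusted p = 0.0136), and its call was lost without library 1 (adjusted p = 0.0687) or library 2 (0.083) of WT trunk. Its paralogue c7a averaged 26.5 ± 3.11 CPM in WT trunk and 23.6 ± 5.1 CPM in WT EOM, with a difference of 0.19 ± 0.217 (SE) on the log2 scale (adjusted p = 0.561) that turned negative with library totals alone. The factor D gene cfd averaged 41.3 ± 8.48 CPM in WT trunk and 75.9 ± 47.5 CPM in WT EOM. The difference was -0.86 ± 0.413 (SE) on the log2 scale (adjusted p = 0.151). This gene passed without library 3 of WT EOM (adjusted p = 0.0127), where 7732 of 19557 genes did. It also passed with library totals alone (0.0314), at 22.6% of all genes, a scaling that moved the median of all genes to -0.43.

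In all, 6 of the 8 genes were lower in trunk than EOM in WT past the threshold, where 27% of 18981 genes passed and 13.1% passed as lower. The same 6 lay lower without overlap, where 22.5% of all genes did, and the median was -1.35 for the 8 genes and -0.01 for all genes. With all 12 libraries in the fit 4 passed, at 9.82% of all genes, c1qa (adjusted p = 0.0952) and c7b (0.0654) being lost. With limma-voom 5 passed, without c1qa (0.0728), where 5122 of 18981 genes did.

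Markers of other cell types also differed between the muscles. Of the photoreceptor and pigment epithelium list, 6 of 10 genes were matched and summed to 0.395 to 0.466 CPM in mutant trunk and 5.26 to 12.1 CPM in mutant EOM, and to 0.311 to 0.719 CPM in WT trunk and 7.33 to 15.5 CPM in WT EOM. Of the 4 that could be tested, 3 were called lower in trunk in the mutant and 4 in WT, and the cone opsin gene opn1lw1 had no read in trunk. The 3 of 6 matched erythrocyte genes, mostly hbaa1, summed to 301 to 832 CPM in mutant trunk and 414 to 1600 CPM in mutant EOM (0 called), and to 320 to 572 CPM in WT trunk and 1090 to 4960 CPM in WT EOM (2 called lower). The 5 glia and nerve genes, all matched, summed to 211 to 353 CPM in mutant trunk and 529 to 718 CPM in mutant EOM (0 called), and to 227 to 394 CPM in WT trunk and 555 to 675 CPM in WT EOM (3 called lower). Of the 13 macrophage genes 0 were called in the mutant and 4 were called lower in trunk in WT. Over all genes, 3.37% were called lower in trunk in the mutant and 13.1% in WT. The part of these cells in the differences of the complement genes was not tested.

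In the mutant, c6 averaged 19.9 ± 2.2 CPM in trunk and 125.4 ± 13.4 CPM in EOM, a difference of -2.57 ± 0.455 (SE) on the log2 scale (adjusted p = 0.00167), or 5.95-fold lower. It was the only one of the 8 genes past the threshold, where 6.57% of 18049 genes passed and 3.37% passed as lower. For c1qc, mutant trunk averaged 5.41 ± 1.06 CPM and mutant EOM 15.1 ± 8.08 CPM, a difference of -1.37 ± 0.498 (SE) on the log2 scale (adjusted p = 0.14), and it passed without library 3 of mutant EOM (adjusted p = 0.0388). For c1qb, mutant trunk averaged 8 ± 1.1 CPM and mutant EOM 17.6 ± 7.84 CPM, a difference of -1.03 ± 0.467 (SE) on the log2 scale (adjusted p = 0.27). For c3a.1, mutant trunk averaged 1.77 ± 0.682 CPM and mutant EOM 3.62 ± 1.32 CPM, a difference of -0.94 ± 0.568 (SE) on the log2 scale (adjusted p = 0.471). These 4 genes lay lower in trunk without overlap, where 12.4% of all genes did. At an unadjusted p under 0.05, c6, c1qc and c1qb were lower, where 8.23% of all genes were.

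The untested cfb had 5, 11 and 5 reads in mutant trunk and none in mutant EOM, while c1qa, c7a, c7b and cfd overlapped between the muscles in the mutant. The chain c1qa averaged 4.36 ± 0.928 CPM in mutant trunk and 8.47 ± 4.16 CPM in mutant EOM, with a difference of -0.85 ± 0.494 (SE) on the log2 scale (adjusted p = 0.447). The genes c7a, c7b and cfd had log2 fold changes of 0.23, -0.1 and -0.15 with adjusted p-values of 0.879, 0.957 and 0.943. The sign of c7a, c7b and cfd changed when single libraries were left out. The median was -0.89 for the 8 genes and 0.02 for all genes.

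Ordered by group mean, each C1q chain was highest in mutant EOM, then WT EOM, then mutant trunk, then WT trunk. Only the last step was without overlap between libraries. The order for c6 was the same, with overlap between the EOM genotypes and none at the other steps. For c3a.1 the order was WT EOM, mutant EOM, mutant trunk and WT trunk, with no overlap at any step on TMM-scaled levels. The gene c7b was highest in WT EOM, apart from mutant EOM on those levels, and overlapped among the other groups. By library totals alone c3a.1 and c7b overlapped between WT EOM and mutant EOM. The groups overlapped at every step for c7a and cfd.

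**Figure D3:**
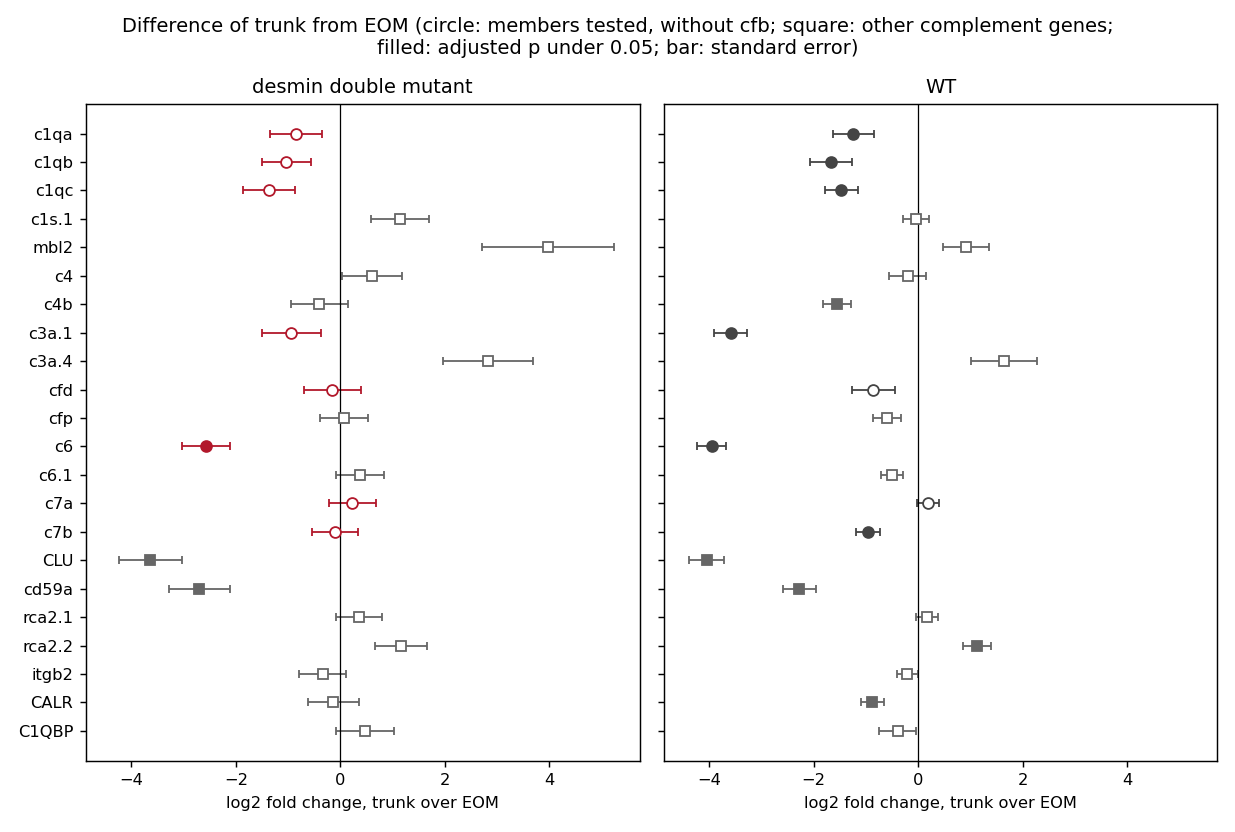
Log2 fold change of trunk over extraocular muscle (x axes) in the mutant and in WT, with bars of 1 standard error. Circles are the 8 complement genes tested, and squares are other complement genes with a mean of at least 1 CPM in a group. Other complement genes below that level, among them c3b.1 and MASP1, are not drawn. Filled symbols have an edgeR adjusted p under 0.05. In WT 6 circles are filled, all left of 0, and in the mutant c6 is the one filled circle, at -2.57; c7a, right of 0, turns negative with library totals alone.

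The 3 C1q chains varied together across libraries. After each muscle's mean log2 CPM was subtracted, their pairwise Pearson correlations over 12 libraries were 0.95 to 0.97. The 3 genes lie next to each other in the RefSeq annotation, in the order c1qb, c1qc and c1qa. By the same measure c6 correlated with c1qb at 0.79 and with c3a.1 at 0.56, whereas c3a.1 stood at 0.01, 0.07 and -0.04 with c1qa, c1qb and c1qc. The 2 C7 genes did not vary together, at -0.1. Both genotypes enter these correlations, and all genes of a library share its scaling factor, so the correlations describe the 12 libraries only.

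Macrophages, the main known source of C1q, were followed by a list of marker genes. Of 18 listed macrophage genes 13 were matched, and their summed level was 437 to 675 CPM in mutant trunk and 244 to 264 CPM in WT trunk, against 628 to 2040 CPM in mutant EOM and 497 to 648 CPM in WT EOM. The sum did not overlap between mutant and WT trunk and overlapped slightly between mutant and WT EOM. In trunk, 11 of the 13 had a log2 fold change above 0, against 48.4% of all genes, with medians of 1.18 and -0.03. At an edgeR unadjusted p under 0.05, 10 of the 13 were higher, where 8.72% of all genes were. In EOM all 13 were above 0, against 52% of all genes, with medians of 1.25 and 0.03. At an edgeR unadjusted p under 0.05, 9 of the 13 were higher, where 2.58% of all genes were. With limma-voom and with edgeR without the block, 0 of the 13 passed the adjusted threshold in either muscle. DESeq2 called 7 in trunk, at 3.4% of all genes, and 0 in EOM, at 0.665%. The replicate block called 7 in EOM, at 3.1% of all genes. Most of the sum came from cd74a and cd74b, which encode the invariant chain of antigen-presenting cells, with cd74a at 316 to 1240 CPM in mutant EOM and 264 to 345 CPM in WT EOM, and cd74b at 68 to 141 CPM in mutant trunk and 31.7 to 38.5 CPM in WT trunk. The markers did not all go one way: csf1rb, a receptor gene for colony-stimulating factor, had 0.67, 0 and 0.517 CPM in mutant trunk, against 1.29, 1.01 and 0.909 CPM in WT trunk. Its paralogue csf1ra overlapped, with 6.7, 2.11 and 6.18 CPM in mutant trunk, against 6.42, 6.75 and 5.43 CPM in WT trunk. No marker of the list other than csf1rb was at 0 in any library.

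The macrophage sum, and so mainly cd74a and cd74b, varied with the C1q chains, with correlations over the 12 libraries of 0.89 for c1qa, 0.91 for c1qb and 0.96 for c1qc after each muscle's mean was subtracted. The value was 0.63 for c6, 0.55 for cfd, 0.23 for c7a, 0.02 for c3a.1 and -0.62 for c7b. The part of the macrophage sum in the differences between groups was not tested. Of 10 listed neutrophil genes 5 were matched, and they summed to 4.45 to 9.05 CPM in mutant trunk and 4.27 to 13 CPM in WT trunk, and to 6.19 to 15 CPM in mutant EOM and 3.36 to 6.1 CPM in WT EOM. The sum thus did not overlap between mutant and WT EOM. With edgeR without the replicate block, 1 of 3 tested had a log2 fold change above 0 in trunk and 4 of 4 in EOM, and 0 were called. At an unadjusted p under 0.05 in that fit, 2 were higher in mutant EOM, where 2.58% of all genes were. With the block 1 gene, csf3r, was called higher in mutant EOM, in a fit that called 3.1% of all genes.

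**Figure D4:**
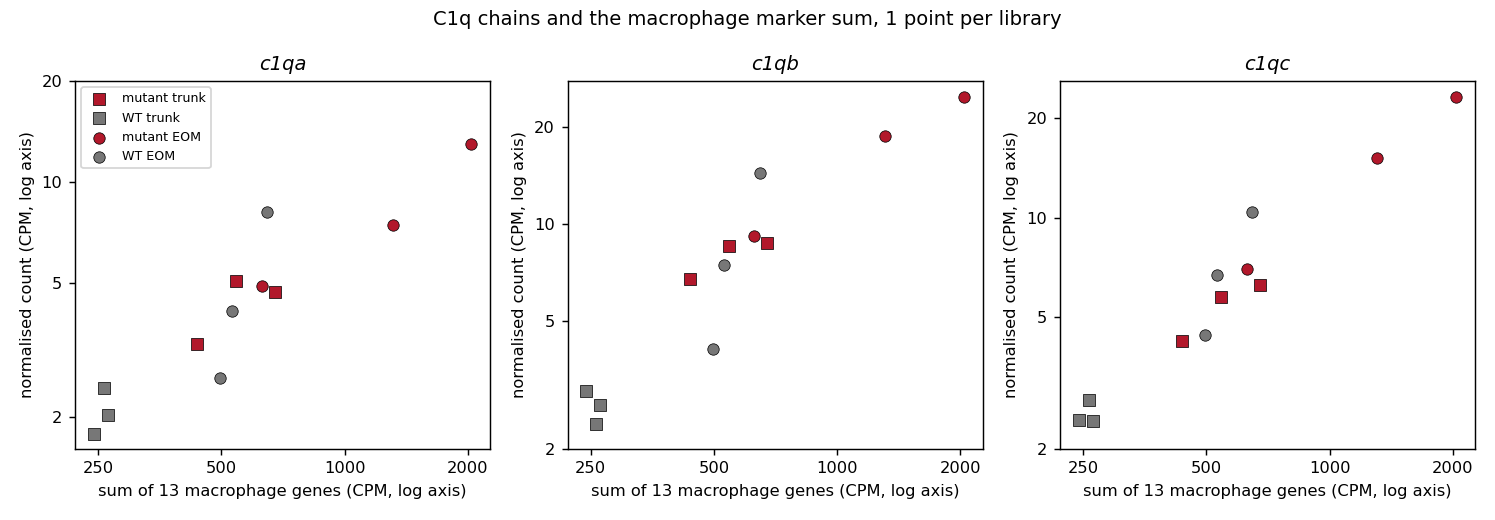
Level of each C1q chain (CPM, log y axis) against the summed level of 13 macrophage genes (CPM, log x axis), 1 point per library, with squares for trunk and circles for extraocular muscle. Mutant trunk libraries lie above and to the right of WT trunk libraries for each chain, and mutant EOM library 1 has the highest value on both axes.

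Hepatocyte markers were followed because the liver is the main known source of C3. All 20 listed hepatocyte genes were matched, and they summed to 1.15 to 2.3 CPM in mutant trunk and 1.1 to 3.16 CPM in WT trunk, against 2.33 to 4.9 CPM in mutant EOM and 6.36 to 9.36 CPM in WT EOM. The liver fatty acid binding protein gene fabp10a reached at most 0.257 CPM and serpina1 had no read in any library, while tfa (transferrin) and the ceruloplasmin gene, listed as CP, made up most of the sum in EOM. The hepatocyte sum was lower in mutant EOM than in WT EOM without overlap and did not separate mutant from WT trunk. In EOM 4 of the 20 genes could be tested with edgeR, and 0 were called without the replicate block. At an unadjusted p under 0.05 in that fit, 1 was lower in mutant EOM, where 2.79% of all genes were. With the block 1 gene, tfa, was called lower in mutant EOM, in a fit that called 3.1% of all genes. The part of the hepatocyte sum in the differences of c3a.1 was not tested. For the fat cell list, 6 of 8 genes were matched and plin1 was at 0 in every library. The sum, mostly fabp4a, was 178 to 575 CPM in mutant trunk and 239 to 303 CPM in WT trunk, against 90.8 to 225 CPM in mutant EOM and 197 to 404 CPM in WT EOM. Its correlation with cfd over the 12 libraries, after each muscle's mean was subtracted, was 0.72. By the same measure cfd stood at 0.71, 0.66 and 0.7 with c1qa, c1qb and c1qc. The part of the fat cell sum in the spread of cfd was not tested.

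The genes whose pattern across the 12 libraries was most like each member, again after each muscle's mean was subtracted, differed between members. For c1qa they were MAPRE1 (Pearson r 0.971), si:dkey-21e2.10 (0.964) and hspb9 (0.964). For c1qb they were si:dkey-21e2.10, AKR1B1 and PSMB10, all at 0.97, and for c1qc they were MAPRE1 (0.981), AKR1B1 (0.975) and PHYHD1 (0.975). The C1q chains thus shared 3 of their nearest genes between them. The nearest genes of c3a.1 were raraa (0.904), VPS9D1 (0.897) and ikbip (0.885). Those of c6 were vwde (0.921), tnk1 (0.907) and TNNI2 (0.895), and those of c7a were si:dkey-11f4.20 (0.95), PLCD4 (0.948) and CREB5 (0.941). Those of c7b were TMEM187 (0.911), FAXDC2 (0.857) and CYLD (0.856), and those of cfd were cox5aa (0.983), tnnc2.1 (0.977) and PRDX3 (0.976). Symbols in capitals are as the name table lists them for zebrafish genes.

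Other complement genes were read from a list of cascade components, regulators and receptors, of which 39 were matched. Those listed as receptors include C1QBP, CALR and itgb2, which are not components of the cascade itself. In trunk 16 could be tested and 12 had a log2 fold change of mutant over WT above 0, with a median of 0.69 against -0.03 for all genes. None passed with edgeR or limma-voom, 6 were higher at an unadjusted p under 0.05 (8.72% of all genes were) and DESeq2 called 1 (3.4% of all genes). That gene was c4b, one of the C4 genes, whose product is cleaved by the classical pathway proteases upstream of C3. It had 17.4, 26.4 and 19.6 CPM in mutant trunk, against 4.92, 5.62 and 7.64 CPM in WT trunk, a difference of 1.81 ± 0.27 (SE) on the log2 scale (adjusted p = 0.0804). The DESeq2 adjusted p was 6.12e-06, over the alternatives on all trunk libraries it ranged up to 0.431, and without library 2 of mutant trunk edgeR gave 0.0153. The lowest mutant value was more than double the highest WT value.

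The other 5 genes with an unadjusted p under 0.05 in trunk showed smaller differences. They were c4, with a log2 fold change of 0.88 (adjusted p = 0.329), cfp, which encodes the alternative pathway stabiliser properdin (0.94, adjusted p = 0.253), c1s.1, a protease gene of the C1 complex (0.73, adjusted p = 0.375), C1QBP (1.01, adjusted p = 0.32) and c6.1 (0.67, adjusted p = 0.3). The gene c6.1 was added to the list after the files were seen. Of the membrane and fluid regulators none passed, with log2 fold changes of 0.71 for clusterin, listed as CLU, 0.24 for cd59a, 0.03 for rca2.1 and -0.52 for rca2.2, and the signs of cd59a and rca2.1 turned with library totals alone. The pore components c8a, c8b, c8g and c9 had at most 12 reads in any library, and the C5 gene c5 at most 6.

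In EOM 18 of these genes could be tested, 11 had a log2 fold change of mutant over WT above 0 and the median was 0.17 against 0.03 for all genes. None passed with limma-voom or with edgeR without the block. At an unadjusted p under 0.05, 1 was higher and 1 lower, where 2.58% and 2.79% of all genes were. The lower gene was mbl2, with 0, 0 and 30 reads in mutant EOM, against 43, 33 and 37 reads in WT EOM. Its log2 fold change was -2.23 (SE 1.07, edgeR adjusted p = 0.924). The gene c3b.1 was called by DESeq2, which called 0.665% of all genes, and by edgeR with the replicate block (adjusted p = 0.0034), which called 3.1%. Here c4b had 31.8, 8.66 and 49.9 CPM in mutant EOM, against 13, 21.6 and 19.2 CPM in WT EOM, and the groups overlapped. In the interaction none of 20 genes passed with any of the 3 tools, and none had an unadjusted p under 0.05 with edgeR. For mbl2 the interaction was 2.93 (SE 1.44, edgeR adjusted p = 0.934). Its log2 fold change in trunk was 0.73 (edgeR adjusted p = 0.655), with overlap between genotypes.

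Between muscles, trunk over EOM in WT, 17 of these genes were tested, with 5 above 0 and 12 below and a median of -0.39. Past the threshold were 5 of the 17, close to the 27% of all genes that passed. Of these, CLU fell by 4.05 on the log2 scale, cd59a by 2.27, c4b by 1.55 and the calreticulin gene CALR by 0.88, and rca2.2 rose by 1.13. Clusterin and CD59 both hinder assembly of the membrane pore. CLU averaged 44.7 ± 9.22 CPM in WT trunk and 749 ± 159 CPM in WT EOM, so that it lay lower in trunk together with c6. In the mutant, CLU fell by 3.64 and cd59a by 2.7 in trunk over EOM, the only ones of 19 tested to pass with edgeR, where 6.57% of all genes passed. Of the 19, 11 were above 0 and 8 below, with a median of 0.36 against 0.02 for all genes. The C3 copy c3a.4 was higher on average in trunk, by 1.64 ± 0.628 (SE) on the log2 scale in WT (edgeR adjusted p = 0.0812). In the mutant it was higher by 2.82 ± 0.861 (SE; edgeR adjusted p = 0.065), but the libraries overlapped. Mutant trunk had 1.86, 5.68 and 0.388 CPM, against 0.721, 0.204 and 0.338 CPM in mutant EOM. DESeq2, which called 32.4% of all genes in WT and 9.65% in the mutant, called c3a.4 in both. The calls for CALR and rca2.2 in WT and for cd59a in the mutant did not hold throughout. That for CALR was lost without library 2 (adjusted p = 0.0796) or 3 (0.0613) of WT trunk, that for rca2.2 without library 3 of WT trunk (0.0503), and that for cd59a without library 1 (0.0895) or 2 (0.0678) of mutant EOM. With all 12 libraries in the fit CALR (0.124) and rca2.2 (0.114) did not pass, nor did rca2.2 with library totals alone (0.179).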

How the data were processed

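Poly-A selected, stranded libraries were sequenced from dissected muscle, per the labels. The deposited files hold raw gene counts of each library in the layout of the aligner STAR, which counts only reads mapped to a single position. STAR, DESeq2 and the build GRCz11 are named, per the submitters' processing notes, and versions are not given in the sources used here. Of the deposited count columns, the one on the strand of the gene held 96.43 to 97.26% of stranded reads and was used. Unmapped reads (7.08 to 14.8% of all reads), multimapping reads (8.28 to 12.5%), reads outside genes (4.43 to 9.24%) and ambiguous reads (1.22 to 1.8%) stayed out of library sizes and tests. Names came from a table that names 29201 of 32520 genes, and neighbours from RefSeq assembly GRCz12tu, whose coordinates are not used because the build differs.

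All genes were fitted with edgeR 4.0.16 (quasi-likelihood; R 4.3.3), with TMM factors, filterByExpr (minimum count 10, minimum total 15), robust dispersions, Benjamini-Hochberg adjustment over all genes tested and a threshold of 0.05. Genotypes were compared within a muscle and muscles within a genotype (6 libraries per fit), and genotype effects between muscles by an interaction over 12 libraries. Standard errors were derived from the log2 fold change and its F statistic. Levels are CPM after TMM over 12 libraries and were not compared between genes, since lengths were not used. Depth sets counting error only. Alternatives were DESeq2 1.42.0, limma 3.58.1 (voom), other scalings, no filter, unstranded counts, non-robust dispersions, the replicate number as a block, 1 fit of 12 libraries and leaving out each library. The fit was tested on simulated counts. For likeness, the 3 named genes with the highest correlation and a mean of at least 1 CPM were taken, on log2 CPM with prior count 2. Other complement genes were named when past the threshold in a comparison or at a mean of at least 1 CPM in a group. The genes c3a.4, c3b.1, c3b.2, c3a.6, MASP1, cfh, serping1, c5ar1, c5, c9 and the C8 genes are named beside them after their values were seen. The members and all gene lists were chosen with earlier results of these data known. The EOM numbers were taken as pairs because every same-numbered pair correlated above 0.1 (0.27 to 0.575).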

Additional observations from a re-analysis of the deposited data

Results flagged for a closer look

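The C3 gene c3a.1 had genotype differences of opposite sign in the muscles. After TMM scaling, all 3 mutant trunk libraries lay above all WT trunk libraries, and all 3 mutant EOM libraries lay below all WT EOM libraries. By library totals alone the genotypes overlapped in EOM, with 711 reads in mutant EOM library 3 against 418 in WT EOM library 1. The interaction was 2.57 on the log2 scale, with an edgeR unadjusted p of 0.000518 and an adjusted p of 0.834 over all genes, so it did not pass the threshold; DESeq2 gave an adjusted p of 0.0444. It ranged between 2.25 and 2.89 when single libraries were left out.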

How the results depend on the processing

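The number of the 8 genes past the threshold moved with the method. In trunk mutant against WT it was 0 with edgeR (0.0333% of all genes passed) and 5 with DESeq2 (3.4%). It was 1 without the low-count filter (0.195%) and 1 with all 12 libraries in the fit (0.259%). With single libraries left out it was 0 to 2, where 0 to 251 of all genes passed. The interaction count was 0 (0.00998% of all genes passed), against 1 with DESeq2 (0.0649%). Trunk against EOM in WT gave 6 (27% of all genes passed), 5 with the replicate block (22.2%) and 5 with limma-voom (5122 of 18981). It gave 4 with all 12 libraries in the fit (9.82%) and 7 with library totals alone (22.6%). With single libraries left out WT gave 3 to 7. The leave-out with 3 called the fewest genes of these and that with 7 the most, 7732 of 19557. In the mutant the count was 1 (6.57%), against 2 with all 12 libraries in the fit (2313 of 20041 genes). With library totals alone it was 3, at a smaller share of all genes. With single libraries left out it was 1 to 2, and the leave-out with 2 called fewer genes than the full set. In EOM the replicate block gave 1 call, c1qb (3.1% of all genes passed), against 0 without it (0.303%). The block removed the call for c1qa in WT trunk against EOM (adjusted p = 0.0519), where the numbers did not pair the libraries, and changed no other call of a member.

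With library totals alone the sign turned for c7b (-0.34), cfd (-0.01), cd59a (-0.37) and rca2.1 (-0.49) in trunk mutant against WT, c1qa (-0.15) and c1qc (-0.36) in the interaction, and c7a in WT (-0.28) and mutant (-0.67) trunk against EOM. The interaction of c1qc was -0.02 with DESeq2, -0.02 with its size factors and -0.03 without the filter. With single libraries left out, signs turned in trunk mutant against WT for mbl2 (-0.65 to 1.14), cd59a (-0.32 to 0.62), rca2.1 (-0.17 to 0.13), itgb2 (-0.19 to 0.13) and CALR (-0.13 to 0.02), in EOM for cfd (-0.43 to 0.52), in the interaction for c1qa (-0.25 to 0.76), c1qb (-0.04 to 0.88), c1qc (-0.36 to 0.46) and c7a (-0.24 to 0.24), and in mutant trunk against EOM for c7a (-0.08 to 0.44), c7b (-0.34 to 0.01) and cfd (-0.68 to 0.18). The cause was not tested.

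Over all genes, calls ranged between 0 and 614 in trunk (6 with edgeR), 0 and 582 in EOM (57), 0 and 13 in the interaction (2), 1968 and 7732 in WT trunk against EOM (5116) and 515 and 2313 in the mutant (1186). Members under about 100 reads, c3a.1 in trunk and cfb, are limited by depth.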

Other observations

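Some complement genes with means under 1 CPM, picked out here after their values were seen, stood apart by genotype in at least 1 muscle. Over all genes tested, 12.6% lay higher and 14.2% lower without overlap in mutant trunk, and 4.04% and 6.93% in mutant EOM. The second C3 family, c3b.1 and c3b.2, was low throughout. The gene c3b.1 had 44, 48 and 117 reads in mutant EOM, against 7, 9 and 10 reads in WT EOM, a log2 fold change of 3.11 (SE 0.742, edgeR adjusted p = 0.0786, and 0.0034 with the replicate block). In trunk it had 39, 1 and 47 reads in mutant libraries, against 3, 3 and 1 reads in WT libraries, so that library 2 of mutant trunk lay with WT. For c3b.2, mutant trunk had 13, 8 and 20 reads, against 0, 0 and 1 reads in WT trunk, and mutant EOM had 13, 5 and 32 reads, against 0, 5 and 1 reads in WT EOM.

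MASP1, a protease gene of the lectin pathway, went the other way on the strand of the gene. On that strand it had no read in any mutant trunk library, against 3, 4 and 5 reads in WT trunk. It had 0, 0 and 10 such reads in mutant EOM, against 22, 16 and 10 reads in WT EOM (log2 fold change -2.46, SE 1.23, edgeR adjusted p = 0.925). Opposite-strand reads numbered 46, 15 and 85 in mutant EOM and 12, 50 and 18 in WT EOM. Counted without regard to strand, MASP1 had 42, 6 and 84 reads in mutant EOM, against 34, 43 and 26 reads in WT EOM, so the genotypes overlapped. The factor H gene cfh, a regulator of the alternative pathway, had 27, 9 and 16 reads in mutant trunk, against 7, 4 and 6 reads in WT trunk. Lower in mutant trunk was c3a.6, with 0, 0 and 2 reads, against 6, 4 and 4 reads in WT trunk. So was serping1, with 0, 0 and 2 reads in mutant trunk, against 3, 3 and 3 reads in WT trunk. The receptor gene c5ar1 had 0.456, 0.314 and 0.54 CPM in mutant EOM, against 0.0253, 0.226 and 0.217 CPM in WT EOM. DESeq2 also called c3b.1 in EOM. In trunk the filter left c3b.1, c3b.2, MASP1, cfh, c3a.6 and serping1 untested.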
